A study of Mus musculus with 8 samples.

Results

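Interleukin receptor chains were followed in CD8 T cells that had entered mouse melanomas, as 10 genes picked by symbol from the deposited count table. They were Il2ra, Il2rb, Il2rg, Il7r, Il21r, Il6ra, Il6st, Il12rb2, Il18r1 and Il10ra, all of them present among the 24976 genes of the table and all 10 among the 13073 genes that passed the filter on low counts. RNA was sequenced in bulk from CD3e+CD8+ cells recovered from B16-OVA tumours, a melanoma line that carries the ovalbumin antigen. The hosts were Rag2-/- mice, which form neither T nor B cells of their own, and the tumours had been implanted 10 days before CD8 T cells were transferred and were sampled on day 10 after the transfer.

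Each of 4 groups held 2 libraries. The dKO-labelled PD1+Tim3+ and PD1+Tim3- groups came from donors described as Cd8Cre with floxed Nr4a1 and Nr4a2 alleles and the OT-I transgene (Tg/+), whose T cell receptor binds an ovalbumin peptide. The WT PD1+Tim3+ and PD1+Tim3- groups came from WT donors, and whether these also carried OT-I was not stated. PD1 and Tim3 are surface proteins that mark T cells under long antigen exposure, and Tim3 separated the sorted populations. Cre was under the control of Cd8, and each library held sorted cells of a single implanted mouse.

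Interleukin receptors are built from shared and private chains. The common gamma chain, encoded by Il2rg, joins private chains to form the receptors for IL-2, IL-7, IL-15 and IL-21, gp130, encoded by Il6st, serves the IL-6 family, and most of these receptors signal through JAK kinases and STAT factors. In CD8 T cells, IL-7 receptor expression is associated with survival and memory, IL-2 receptor chains with effector expansion, IL-12 and IL-18 receptors with interferon-gamma production, and the IL-10 receptor with a cytokine that restrains inflammation.

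Between the populations, Il2ra, Il2rb, Il12rb2 and Il18r1 were higher in PD1+Tim3+ cells and the IL-6 receptor chains Il6st and Il6ra were lower, in both genotypes. Il18r1 rose by 1.33 in dKO-labelled and 1.27 in WT cells on the log2 scale, and Il6st fell by 1.62 in dKO-labelled and by 1.16 in WT cells. Between the genotypes, Il7r was higher and Il10ra lower in dKO-labelled than in WT PD1+Tim3+ cells, and averaged over both populations Il18r1 was higher as well. Each of these calls was lost in some omissions of a single library, and those of Il10ra and Il18r1 were also lost in DESeq2. Il2rg and Il21r passed the test in no comparison.

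The genotype label was checked on its targets first. Nr4a1 went against it, with 1194 and 1175 CPM in dKO-labelled and 803 and 789 CPM in WT PD1+Tim3+ libraries, and with 1331 and 1489 CPM in dKO-labelled and 979 and 824 CPM in WT PD1+Tim3- libraries. CPM are counts relative to the library total, scaled here for library composition by TMM factors. Nr4a2 averaged 969 ± 21.8 CPM in dKO-labelled and 1007 ± 38.6 CPM in WT PD1+Tim3+ cells, and 933 ± 5.97 CPM in dKO-labelled and 974 ± 23.0 CPM in WT PD1+Tim3- cells (SD, n = 2 each). Which exons were floxed was not stated, so gene counts can include transcripts that lack them, and every genotype difference given here is one between libraries by their label. Nr4a1 thus differed between the genotypes in the direction opposite to a deletion, by 0.61 ± 0.090 averaged over the populations (adjusted p = 0.00988), and its part in the differences of the receptor chains was not tested.

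Total counts per library ran from 1944999 in a dKO-labelled PD1+Tim3- library to 13418762 in a WT PD1+Tim3+ library. Replicates of a group differed by more than counting noise, at a chi-square of 3.10 to 16.1 per gene, and none was treated as a duplicate. Cd8a lay at 854 to 1223 CPM in all 8 libraries, and Havcr2, which encodes Tim3, at 41.8 to 58.2 CPM in PD1+Tim3+ and 2.28 to 3.62 CPM in PD1+Tim3- libraries. Reads of ribosomal RNA genes made up 6.52 to 8.36% of counts in PD1+Tim3+ and 1.60 to 2.37% in PD1+Tim3- libraries. Of other cells that carry these receptors, Cd4 stayed at or below 0.525 CPM, Foxp3 at or below 2.55 CPM, and Ncr1, which defines NK cells, at or below 0.214 CPM. The 5 CD4 and regulatory T cell markers summed to 29.2 to 34.9 CPM in PD1+Tim3+ and 16.9 to 20.5 CPM in PD1+Tim3- libraries, with Zbtb7b as their leading gene at 9.05 to 24.9 CPM. The 6 dendritic cell markers summed to 47.3 to 53.4 CPM in PD1+Tim3+ and 25.1 to 32.0 CPM in PD1+Tim3- libraries, nearly all of it from Itgax, and the 4 erythroid markers to 4.28 to 87.3 CPM in PD1+Tim3+ and 1.66 to 6.11 CPM in PD1+Tim3- libraries, highest in a dKO-labelled PD1+Tim3+ library. The 6 NK and innate lymphoid markers summed to 110.4 to 152 CPM in PD1+Tim3+ and 172 to 269 CPM in PD1+Tim3- libraries, most of it from Gata3, which T cells also express. The CD4 and regulatory T cell, dendritic cell, and NK and innate lymphoid sums moved with the population in both genotypes. The erythroid sums did so in dKO-labelled libraries only. In WT libraries they overlapped, at 4.28 to 27.9 CPM in PD1+Tim3+ and 1.66 to 6.11 CPM in PD1+Tim3- cells. The 6 macrophage and monocyte markers summed to 4.76 to 6.78 CPM in PD1+Tim3+ and 3.15 to 11.8 CPM in PD1+Tim3- libraries, with Cd14 leading. Cd14 averaged 5.19 CPM in dKO-labelled and 4.48 CPM in WT PD1+Tim3+ cells, and 6.10 CPM in dKO-labelled and 9.37 CPM in WT PD1+Tim3- cells. The 4 neutrophil markers, led by Csf3r, summed to 2.04 to 4.25 CPM in PD1+Tim3+ and 2.10 to 4.83 CPM in PD1+Tim3- libraries. The part of all these lists in the receptor differences was not tested.

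Each comparison rested on a quasi-likelihood test of edgeR over all 8 libraries, which share a common estimate of spread with 4 residual degrees of freedom, and a gene was called where its p-value, adjusted by Benjamini-Hochberg over the 13073 genes, was under 0.05. Fold changes are given on the log2 scale with their standard errors, and adjusted p-values come from that test unless another tool is named. The spread of each gene was also drawn toward that of the other genes, with 7.08 prior degrees of freedom beside these 4. With 2 libraries per group, p-values measure the spread between these mice only, in part as borrowed from other genes. In bulk RNA, fewer cells that express a chain and less of its RNA per cell cannot be told apart.

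Promoter windows of the chains were read for the motifs of factors that are known to act on cytokine receptor genes. The windows are the 250 bases before a RefSeq start site of build GRCm38.p6, which were found for 8 of the 10 members in 10 windows, and Il2rb and Il10ra had no entry. Shown 5′ to 3′ on the strand of the gene are the windows of Il7r (chr15:9529877-9530126, minus strand) and Il12rb2 (chr6:67376189-67376438, minus strand), which share a STAT-type motif in capitals (TTCNNNGAA), and of Il21r (chr7:125603179-125603428, plus strand), which held an NR4A-type motif (AAAGGTCA, here on the opposite strand) and a forkhead-type motif (TGTTTAC), both in capitals.
Il7r: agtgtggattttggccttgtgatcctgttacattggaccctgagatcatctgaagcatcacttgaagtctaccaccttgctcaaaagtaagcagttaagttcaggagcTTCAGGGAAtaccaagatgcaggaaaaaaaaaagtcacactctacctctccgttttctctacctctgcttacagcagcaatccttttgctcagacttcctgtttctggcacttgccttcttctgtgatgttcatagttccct
Il12rb2: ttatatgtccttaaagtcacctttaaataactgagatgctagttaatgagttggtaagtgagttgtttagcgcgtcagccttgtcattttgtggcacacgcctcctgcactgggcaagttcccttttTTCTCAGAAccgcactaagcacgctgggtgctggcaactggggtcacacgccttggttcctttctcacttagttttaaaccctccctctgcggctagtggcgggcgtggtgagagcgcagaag
Il21r: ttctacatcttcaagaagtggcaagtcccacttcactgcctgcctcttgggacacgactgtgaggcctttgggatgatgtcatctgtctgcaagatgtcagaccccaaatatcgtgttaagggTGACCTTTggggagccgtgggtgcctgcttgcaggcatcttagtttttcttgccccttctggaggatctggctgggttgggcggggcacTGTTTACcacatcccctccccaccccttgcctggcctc
The Il7r window overlapped an exon of a longer annotated Il7r transcript by 86 bases, and those of Il12rb2 and Il21r overlapped no annotated exon of their gene.

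In Il18r1, the third start site listed had the STAT-type motif at 2 places in its window, shown with 10 bases on either side, at chr1:40465777-40465805 and chr1:40465844-40465872 on the plus strand. That window lies inside the annotated gene and shares 91 bases with its exons, and the other two windows of Il18r1 held no match.
Il18r1 distal site: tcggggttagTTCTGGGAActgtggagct
Il18r1 proximal site: agtacaggtcTTCCCAGAActgaaagctt
The STAT-type motif reads the same on both strands and was found in 3 of the 10 windows, and in 7.02% of 32851 windows of all genes. The NR4A-type motif, searched on both strands, was in 1 of the 10, in Il21r, and in 1.34% of all windows. The forkhead-type motif was in 1 of the 10 and in 3.17% of all, and an E26-type motif (CCGGAAG) in 1 of the 10, in Il2rg, and in 6.91% of all. AP-1 (TGANTCA) and TCF (TTCAAAG) motifs were in 0 of the 10, against 6.75% and 4.46% of all windows. Motifs were allowed to overlap, and a match describes the letters of a window without showing that a factor binds there.

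**Figure D1:**
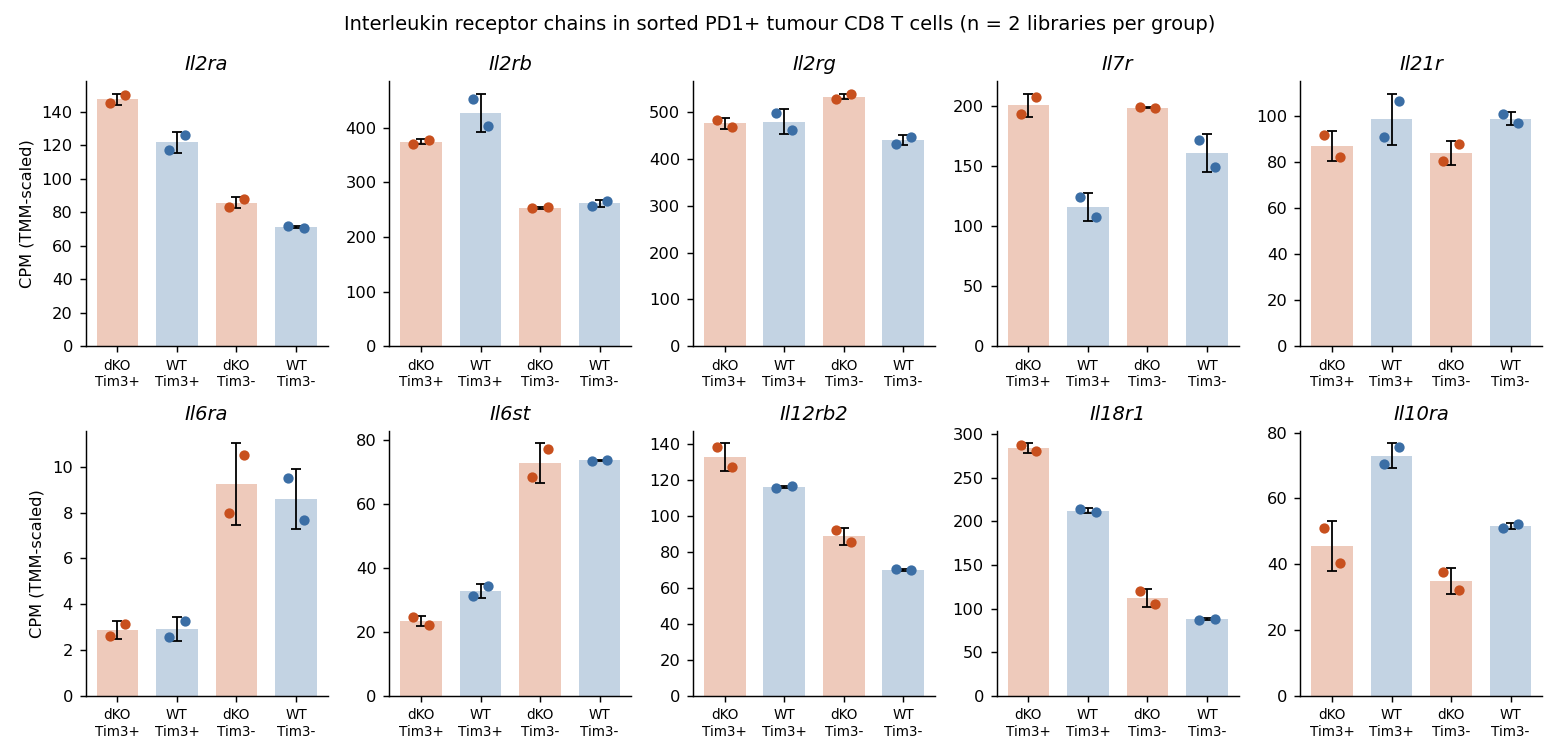
CPM of each chain in the 4 groups; bars are means of 2 libraries, error bars the SD and points the libraries, in orange for dKO-labelled and blue for WT. Il18r1 reached 280.4 to 288 CPM in dKO-labelled PD1+Tim3+ cells against 87.0 to 88.5 CPM in WT PD1+Tim3- cells, and Il6st was at 22.2 to 34.3 CPM in the 4 PD1+Tim3+ libraries against 68.4 to 77.2 CPM in the 4 PD1+Tim3- libraries.

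Il2ra encodes the alpha chain of the IL-2 receptor (chr2:11642807-11693193, plus strand, GRCm38), which raises the affinity of the receptor for IL-2. It had 145 and 150.0 CPM in dKO-labelled and 117 and 126 CPM in WT PD1+Tim3+ libraries, and 83.4 and 88.2 CPM in dKO-labelled and 71.8 and 70.9 CPM in WT PD1+Tim3- libraries. The 4 groups did not overlap, all PD1+Tim3+ libraries lay above all PD1+Tim3- libraries, and within each population the dKO-labelled libraries were the higher. Between the populations Il2ra rose by 0.79 ± 0.10 in dKO-labelled cells (adjusted p = 0.0015) and by 0.77 ± 0.10 in WT cells (adjusted p = 0.00133). The genotype difference was 0.28 ± 0.099 in PD1+Tim3+ cells (adjusted p = 0.282) and 0.26 ± 0.11 in PD1+Tim3- cells (adjusted p = 0.574), and neither was called. Averaged over the populations it was 0.27 ± 0.073, with a 95% interval of 0.11 to 0.43 and an adjusted p of 0.184.

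Il2rb encodes the beta chain shared by the receptors for IL-2 and IL-15 (chr15:78479256-78495271, minus strand). It had 371 and 378 CPM in dKO-labelled and 453 and 403 CPM in WT PD1+Tim3+ libraries, and 253 and 255 CPM in dKO-labelled and 257 and 266 CPM in WT PD1+Tim3- libraries. Here too all PD1+Tim3+ libraries were above all PD1+Tim3- libraries, but the dKO-labelled libraries were the lower in each population. The population difference was 0.56 ± 0.11 in dKO-labelled (adjusted p = 0.0149) and 0.71 ± 0.11 in WT cells (adjusted p = 0.00315). The genotype differences of -0.19 ± 0.11 in PD1+Tim3+ and -0.043 ± 0.11 in PD1+Tim3- cells were not called (adjusted p = 0.548 and 0.945). Their 95% intervals were -0.44 to 0.056 and -0.29 to 0.21.

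Il2rg, the common gamma chain (chrX:101264378-101268255, minus strand), was the most abundant of the 10. It had 484 and 468 CPM in dKO-labelled and 498 and 461 CPM in WT PD1+Tim3+ libraries, and 529 and 538 CPM in dKO-labelled and 433 and 448 CPM in WT PD1+Tim3- libraries. The PD1+Tim3+ groups overlapped each other and sat between the PD1+Tim3- groups, of which the dKO-labelled was the higher. Its genotype difference of 0.28 ± 0.11 in PD1+Tim3- cells was not called (adjusted p = 0.574), and in PD1+Tim3+ cells it was -0.011 ± 0.11 with a 95% interval of -0.26 to 0.23 (adjusted p = 0.997). PD1+Tim3+ against PD1+Tim3- cells gave -0.16 ± 0.11 in dKO-labelled and 0.12 ± 0.11 in WT libraries, neither of them called (adjusted p = 0.418 and 0.481). Its exons share 728 bases with Gm20489, an overlapping gene on the same strand, so its counts can hold reads of both.

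Il7r encodes the private chain of the IL-7 receptor (chr15:9505788-9530176, minus strand). It had 193 and 207 CPM in dKO-labelled and 124 and 107 CPM in WT PD1+Tim3+ libraries, and 199 and 198 CPM in dKO-labelled and 172 and 149 CPM in WT PD1+Tim3- libraries. All 4 dKO-labelled libraries lay above all 4 WT libraries, the dKO-labelled groups overlapped, and the lowest values were those of WT PD1+Tim3+ cells. In WT cells Il7r fell by 0.48 on the log2 scale (SE 0.12, adjusted p = 0.0184) in the PD1+Tim3+ population. In dKO-labelled cells the same difference was 0.013 ± 0.12, with a 95% interval of -0.25 to 0.28 (adjusted p = 0.971). The direct test of whether these population differences differ, the interaction, gave 0.49 ± 0.17 with an unadjusted p of 0.0136 and an adjusted p of 0.354, which was not called. The genotype difference was 0.80 ± 0.12 in PD1+Tim3+ cells (adjusted p = 0.0136), 0.30 ± 0.12 in PD1+Tim3- cells (adjusted p = 0.569) and 0.55 ± 0.084 averaged over the populations (adjusted p = 0.0122). The call in PD1+Tim3+ cells was lost without WT PD1+Tim3+ replicate 1 (adjusted p = 0.099) or replicate 2 (adjusted p = 0.298), each of which leaves a lone WT library that is assumed to vary like the others. That of the average was lost without dKO-labelled PD1+Tim3- replicate 1 or 2 or WT PD1+Tim3+ replicate 2 (adjusted p = 0.105, 0.0672 and 0.115), and the fall in WT cells without WT PD1+Tim3- replicate 1 or WT PD1+Tim3+ replicate 1 or 2 (adjusted p = 0.183, 0.0697 and 0.213).

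Il21r encodes the private chain of the IL-21 receptor (chr7:125603429-125633570, plus strand). It had 91.6 and 82.2 CPM in dKO-labelled and 90.8 and 106 CPM in WT PD1+Tim3+ libraries, and 80.4 and 87.7 CPM in dKO-labelled and 101 and 96.8 CPM in WT PD1+Tim3- libraries. Neighbouring groups overlapped throughout, and only in PD1+Tim3- cells were the dKO-labelled libraries both below the WT libraries. The genotype difference was -0.19 ± 0.11 in PD1+Tim3+ cells (adjusted p = 0.568) and -0.25 ± 0.12 in PD1+Tim3- cells (adjusted p = 0.628). Averaged over the populations it was -0.22 ± 0.083, with a 95% interval of -0.40 to -0.034 and an adjusted p of 0.44. Between the populations it differed by 0.058 ± 0.12 in dKO-labelled and 0.00067 ± 0.11 in WT cells (adjusted p = 0.833 and 0.998), with 95% intervals of -0.21 to 0.32 and -0.25 to 0.25. The NR4A-type motif printed above lies 127 to 120 bases before its start and the forkhead-type motif 38 to 32 bases before it.

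The IL-6 receptor pairs a private chain from Il6ra (chr3:89864059-89913196, minus strand) with the signalling chain gp130 from Il6st (chr13:112464070-112510086, plus strand), which also serves other cytokines of the family. Il6st had 24.6 and 22.2 CPM in dKO-labelled and 31.1 and 34.3 CPM in WT PD1+Tim3+ libraries, and 68.4 and 77.2 CPM in dKO-labelled and 73.5 and 73.8 CPM in WT PD1+Tim3- libraries. Every PD1+Tim3+ library lay below every PD1+Tim3- library, and in the PD1+Tim3+ population the dKO-labelled libraries were the lower. Il6st fell by 1.62 in dKO-labelled (SE 0.12, adjusted p = 2.97e-05) and by 1.16 in WT cells (SE 0.11, adjusted p = 1.53e-04) on the log2 scale. The interaction was -0.46 ± 0.16, with an unadjusted p of 0.0171 and an adjusted p of 0.378. Its genotype difference of -0.49 ± 0.12 in PD1+Tim3+ cells missed the threshold (adjusted p = 0.126) and passed it with no low-count filter (-0.52, adjusted p = 0.038), and in PD1+Tim3- cells it was -0.033 ± 0.11 (adjusted p = 0.958).

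Il6ra was the least abundant of the 10, with 14 to 67 counts per library. Its exons share 242 bases with the antisense gene Gm42809, which has no row in the deposited table, and with the strand setting unknown its counts are uncertain too. It had 2.61 and 3.14 CPM in dKO-labelled and 2.55 and 3.28 CPM in WT PD1+Tim3+ libraries, and 7.96 and 10.5 CPM in dKO-labelled and 9.53 and 7.67 CPM in WT PD1+Tim3- libraries. The genotypes overlapped in each population, and the populations did not overlap. It fell by 1.60 in dKO-labelled (SE 0.31, adjusted p = 0.0125) and by 1.52 in WT cells (SE 0.26, adjusted p = 0.00399) on the log2 scale. The genotype differences of -0.074 ± 0.32 in PD1+Tim3+ and 0.013 ± 0.26 in PD1+Tim3- cells had 95% intervals of -0.78 to 0.63 and -0.56 to 0.59. Differences within these bounds are compatible with the data.

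Il12rb2 encodes the inducible signalling chain of the IL-12 receptor (chr6:67291318-67376188, minus strand). It had 138 and 127 CPM in dKO-labelled and 116 and 117 CPM in WT PD1+Tim3+ libraries, and 92.1 and 85.6 CPM in dKO-labelled and 70.5 and 69.9 CPM in WT PD1+Tim3- libraries. The 4 groups stood apart in the same order as for Il2ra. The population difference was 0.57 ± 0.10 in dKO-labelled (adjusted p = 0.00913) and 0.73 ± 0.10 in WT cells (adjusted p = 0.00184). The genotype difference was 0.19 ± 0.099 in PD1+Tim3+ cells (adjusted p = 0.489) and 0.35 ± 0.11 in PD1+Tim3- cells (adjusted p = 0.474), and 0.27 ± 0.073 on average (adjusted p = 0.184). Its exons share 1519 bases with Serbp1 on the opposite strand, which had 394 to 557 CPM, and the strand setting of the counting is not known, so the Il12rb2 counts are uncertain. Serbp1 itself differed by -0.074 ± 0.15 in dKO-labelled and by -0.35 ± 0.14 in WT cells between the populations (adjusted p = 0.819 and 0.123), and neither was called.

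Il18r1 encodes the ligand-binding chain of the IL-18 receptor (chr1:40465552-40500854, plus strand). It had 288 and 280.4 CPM in dKO-labelled and 214 and 210.4 CPM in WT PD1+Tim3+ libraries, and 119.6 and 105 CPM in dKO-labelled and 87.0 and 88.5 CPM in WT PD1+Tim3- libraries. The 4 groups stood apart, with the dKO-labelled libraries above the WT libraries of the same population. The population difference was 1.33 ± 0.11 in dKO-labelled (adjusted p = 5.21e-05) and 1.27 ± 0.11 in WT cells (adjusted p = 7.76e-05), and their difference was 0.057 ± 0.15 with a 95% interval of -0.28 to 0.40 (adjusted p = 0.929). The genotype difference was 0.42 ± 0.11 in PD1+Tim3+ cells (adjusted p = 0.134) and 0.36 ± 0.11 in PD1+Tim3- cells (adjusted p = 0.474). Averaged over the populations Il18r1 was higher in dKO-labelled libraries by 0.39 ± 0.077 (adjusted p = 0.0397). That call was lost in DESeq2 (adjusted p = 0.0795) and without any single library other than dKO-labelled PD1+Tim3+ replicate 2 (adjusted p up to 0.308).

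Il10ra encodes the ligand-binding chain of the IL-10 receptor (chr9:45253837-45269149, minus strand). It had 51.0 and 40.3 CPM in dKO-labelled and 70.4 and 75.6 CPM in WT PD1+Tim3+ libraries, and 37.6 and 32.0 CPM in dKO-labelled and 50.9 and 52.2 CPM in WT PD1+Tim3- libraries. In each population both dKO-labelled libraries lay below both WT libraries, and dKO-labelled PD1+Tim3+ overlapped WT PD1+Tim3- cells by a margin of 51.0 against 50.9 CPM. The genotype difference was -0.68 ± 0.13 in PD1+Tim3+ cells (adjusted p = 0.0388), -0.53 ± 0.14 in PD1+Tim3- cells (adjusted p = 0.357) and -0.61 ± 0.095 averaged over both (adjusted p = 0.0133). The PD1+Tim3+ call was lost in DESeq2 (adjusted p = 0.0972), with the 4 libraries compared alone (adjusted p = 0.0972), and without 5 single libraries, which were both of WT PD1+Tim3+, both of dKO-labelled PD1+Tim3- and dKO-labelled PD1+Tim3+ replicate 2 (adjusted p up to 0.395). The averaged call was lost without either library of WT PD1+Tim3+ or of dKO-labelled PD1+Tim3- (adjusted p up to 0.0896). Between the populations Il10ra rose by 0.51 ± 0.12 in WT cells (adjusted p = 0.0176), which was lost in DESeq2 (adjusted p = 0.108) and without any single WT library (adjusted p up to 0.141). In dKO-labelled cells the difference was 0.36 ± 0.14 (adjusted p = 0.156).

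**Figure D2:**
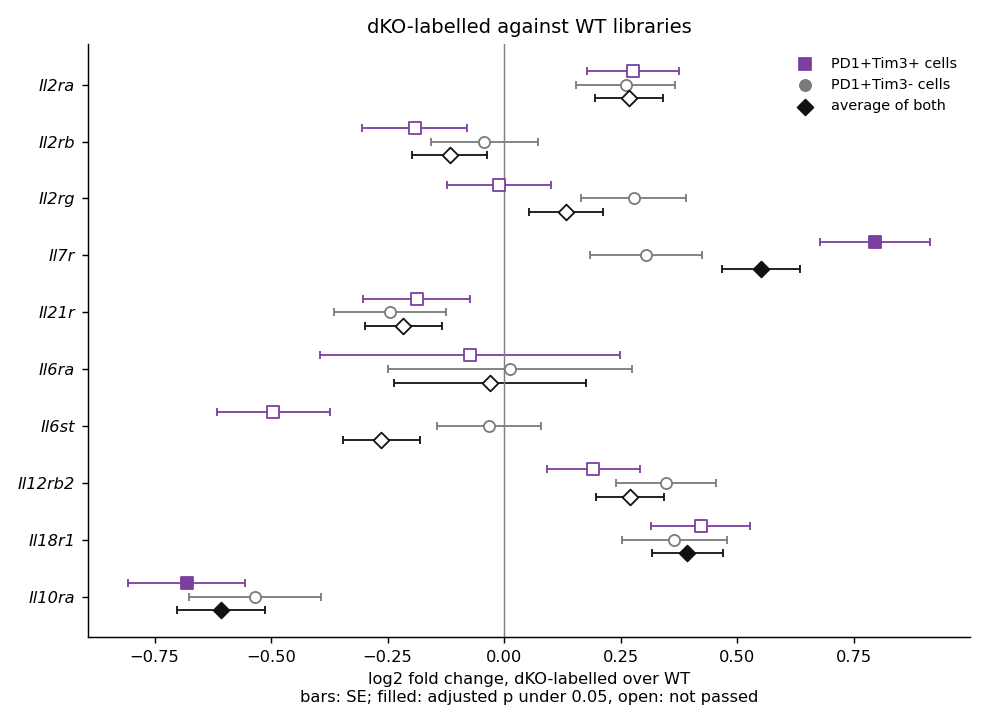
Log2 fold changes of dKO-labelled over WT libraries for each chain in PD1+Tim3+ cells (purple squares), PD1+Tim3- cells (grey circles) and averaged over both (black diamonds), with bars for the SE and filled symbols for adjusted p under 0.05. Filled symbols are those of Il7r at 0.80 and 0.55, Il10ra at -0.68 and -0.61, and Il18r1 at 0.39.

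Counted over the 10 chains, the genotype comparison in PD1+Tim3+ cells called 1 higher, Il7r, and 1 lower, Il10ra, where 0.627% of all genes tested were called, 0.26% higher and 0.367% lower. The median log2 fold change was -0.04 over the chains and 0.01 over all genes. In PD1+Tim3- cells 0 of the 10 were called, against 0.0459% of all genes, while 6 of the 10 and 1081 of 13073 genes had an unadjusted p under 0.05, and DESeq2 and limma-voom called 0 of the 10 as well. Averaged over the populations 2 were higher and 1 lower, against 0.864% of all genes, 0.398% higher and 0.467% lower. Libraries of the genotypes did not overlap for 7 chains in PD1+Tim3+ and 8 chains in PD1+Tim3- cells, against 41.4% and 41.3% of all genes. In 6 chains, they were apart in the same direction in both populations, against 8.84% of all genes. These were 4 above WT, Il2ra, Il7r, Il12rb2 and Il18r1, and 2 below it, Il2rb and Il10ra, against 4.44% and 4.4% of all genes in these directions. The chains were chosen with earlier results of these data known, and the shares cover genes of all levels. Counts of chains set beside such shares, here and between the populations, are therefore no test of an excess. The averaged comparison is built from the same libraries as the other genotype comparisons, and each library also enters a population comparison. The count of 2 in PD1+Tim3+ cells became 0 without either WT PD1+Tim3+ library and 1 without either dKO-labelled PD1+Tim3- library or dKO-labelled PD1+Tim3+ replicate 2. Over all genes the 82 calls fell to 10 and 6 without a WT PD1+Tim3+ library, to 39 and 40 without a dKO-labelled PD1+Tim3- library, and to 52 without that last library. The averaged count of 3 became 0 without either dKO-labelled PD1+Tim3- library or WT PD1+Tim3+ replicate 2, and 1 without WT PD1+Tim3+ replicate 1, while the 113 calls over all genes fell to between 39 and 44 in these 4 omissions.

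**Figure D3:**
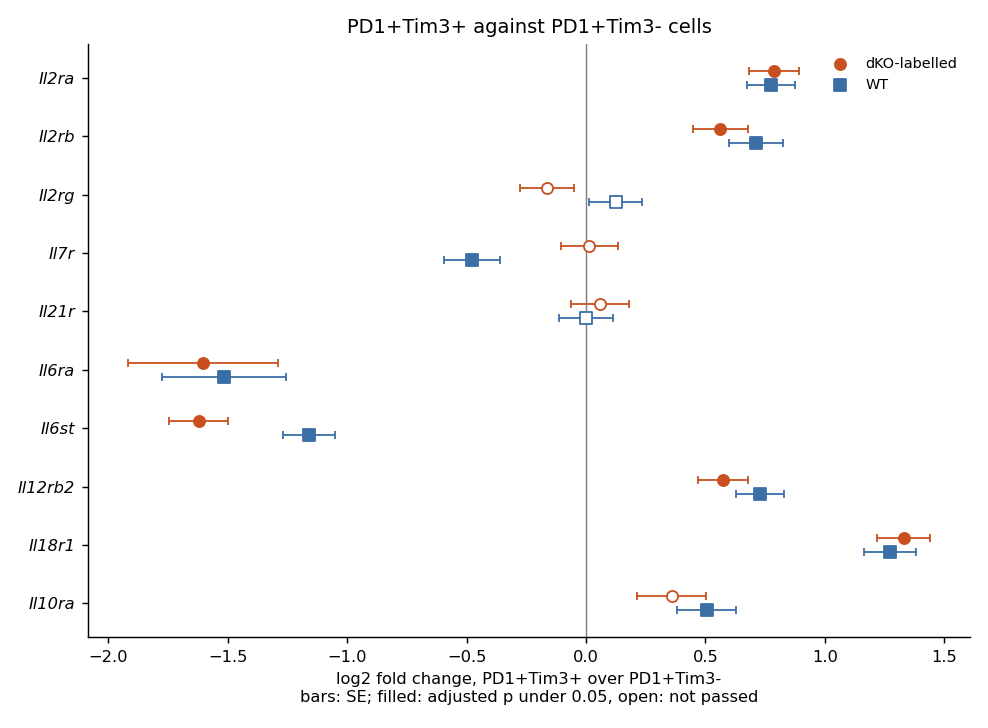
Log2 fold changes of PD1+Tim3+ over PD1+Tim3- cells for each chain in dKO-labelled (orange circles) and WT libraries (blue squares), with bars for the SE and filled symbols for adjusted p under 0.05. Il18r1 is farthest to the right at 1.33 and 1.27 and Il6st and Il6ra farthest to the left at -1.16 to -1.62, and Il7r is filled for WT alone, at -0.48, with an interaction that was not called.

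Between the populations, dKO-labelled libraries gave 4 chains higher (Il2ra, Il2rb, Il12rb2 and Il18r1) and 2 lower (Il6ra and Il6st), where 9.93% of all genes tested were called, 5.21% higher and 4.72% lower. WT libraries gave 5 higher, with Il10ra added, and 3 lower, with Il7r added, where 17% of all genes were called, 8.25% higher and 8.76% lower. The median log2 fold change over the chains was 0.21 in dKO-labelled and 0.32 in WT libraries, and 0.01 over all genes in each. Libraries of the populations did not overlap for 8 chains in dKO-labelled and 9 in WT libraries, against 50.9% and 63% of all genes. The count in dKO-labelled libraries became 2 without PD1+Tim3- replicate 1, which left Il18r1 and Il6st, and 3 without replicate 2, which left these and Il2ra. Calls over all genes fell as well, to 132 and 290 of 13073, against 1298 with all libraries. The count in WT libraries became 5 without PD1+Tim3- replicate 1, which lost Il6ra, Il7r and Il10ra, or PD1+Tim3+ replicate 1, which lost Il2rb, Il7r and Il10ra, and Il2ra, Il6st, Il12rb2 and Il18r1 were called in WT cells whichever library was left out. Over all genes the 2223 calls in WT libraries fell to 551 without PD1+Tim3- replicate 1 and to 433 without PD1+Tim3+ replicate 1. Of the interaction, 0 of the 10 chains and 0% of all genes were called by edgeR, while 2 chains, Il7r and Il6st, and 1320 genes had an unadjusted p under 0.05. DESeq2 called 109 genes and limma-voom 0 for the interaction, none of them among the 10.

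Levels of different genes were set side by side per kilobase of exon, which assumes that reads spread over the whole length of the exons. That was not checked here. Il2rg led with a mean over the 8 libraries of 289 CPM per kb. Il2rb followed at 76.9, Il7r at 47.6, Il21r at 36.2, Il18r1 at 36.1, Il12rb2 at 26.9, Il2ra at 20.5 and Il10ra at 14.7 CPM per kb. The gp130 chain Il6st was at 4.61 and Il6ra at 0.683 CPM per kb. Il18r1 moved within this order, since at 59.0 CPM per kb in dKO-labelled and 44.1 in WT PD1+Tim3+ cells it was above Il21r at 34.2 and 38.8, and at 23.3 in dKO-labelled and 18.2 in WT PD1+Tim3- cells it was below Il21r at 33.0 and 38.9. Il27ra pairs with gp130 to form the IL-27 receptor. It had 45.9 CPM per kb in dKO-labelled and 53.4 in WT PD1+Tim3+ cells. In PD1+Tim3- cells it had 51.9 in dKO-labelled and 47.7 in WT libraries. By this measure the partner of Il6st stood far above it in every group. In CPM, Il27ra averaged 122 in dKO-labelled and 142 in WT PD1+Tim3+ cells, and 138 and 127 in PD1+Tim3- cells. Il6st averaged 23.4 and 32.7 CPM, and 72.8 and 73.7 CPM, in the same order. Lengths were taken as the union of annotated exons of each gene.

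Within a library, the ratio of 2 chains per length does not depend on the scaling. Its level rests on the exon lengths, while the order of the libraries does not. The ratio of Il2ra to Il2rb was 0.322 and 0.327 in dKO-labelled and 0.213 and 0.258 in WT PD1+Tim3+ libraries, and 0.272 and 0.284 in dKO-labelled and 0.230 and 0.220 in WT PD1+Tim3- libraries. All 4 dKO-labelled libraries were above all 4 WT libraries. For Il7r to Il2rg, the chains of the IL-7 receptor, the ratio was 0.188 and 0.209 in dKO-labelled and 0.117 and 0.110 in WT PD1+Tim3+ libraries, and 0.177 and 0.174 in dKO-labelled and 0.187 and 0.157 in WT PD1+Tim3- libraries. The WT PD1+Tim3+ libraries stood below the other 6, and the genotypes overlapped in PD1+Tim3- cells. Il12rb2 to Il12rb1, the other chain of the IL-12 receptor, gave 7.03 and 6.14 in dKO-labelled and 4.60 and 5.10 in WT PD1+Tim3+ libraries. In PD1+Tim3- libraries it gave 6.22 and 6.86 in dKO-labelled and 5.37 and 5.55 in WT. Again every dKO-labelled library was above every WT library. Il12rb1 had as few as 18 counts, in dKO-labelled PD1+Tim3- replicate 2, and the Il12rb2 counts are uncertain because of Serbp1.

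Il10ra to Il10rb, the second chain of the IL-10 receptor, gave 0.493 and 0.346 in dKO-labelled and 0.552 and 0.583 in WT PD1+Tim3+ libraries, and 0.350 and 0.371 in dKO-labelled and 0.441 and 0.424 in WT PD1+Tim3- libraries. In each population the dKO-labelled libraries were the lower. Il18r1 to Il18rap, the accessory chain of the IL-18 receptor, averaged 1.21 in dKO-labelled and 0.966 in WT PD1+Tim3+ cells, and 1.03 in dKO-labelled and 0.883 in WT PD1+Tim3- cells, with overlap between the genotypes in PD1+Tim3- cells. Il6ra to Il6st averaged 0.157 in dKO-labelled and 0.113 in WT PD1+Tim3+ cells, and 0.160 in dKO-labelled and 0.148 in WT PD1+Tim3- cells. Il2rb to Il2rg averaged 0.307 in dKO-labelled and 0.347 in WT PD1+Tim3+ cells, and 0.185 in dKO-labelled and 0.231 in WT PD1+Tim3- cells. Il21r to Il2rg averaged 0.120 in dKO-labelled and 0.136 in WT PD1+Tim3+ cells, and 0.103 in dKO-labelled and 0.148 in WT PD1+Tim3- cells. These ratios were not tested, and how often ratios of other gene pairs separate the genotypes was not examined.

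**Figure D4:**
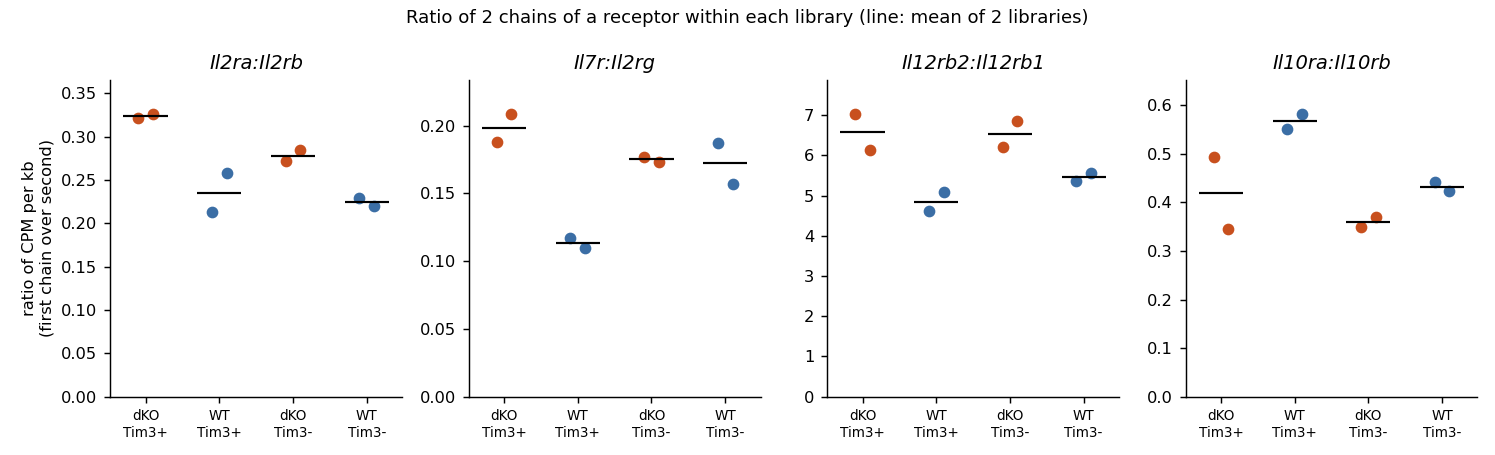
Ratio of CPM per kb of 2 chains of the same receptor within each library, with points for libraries (orange dKO-labelled, blue WT) and lines for the mean of 2. Every dKO-labelled point is above every WT point for Il2ra to Il2rb (0.272 to 0.327 against 0.213 to 0.258) and for Il12rb2 to Il12rb1 (6.14 to 7.03 against 4.60 to 5.55). The ratios were not tested, and the Il12rb2 counts are uncertain.

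Among the chains themselves, likeness was measured as the root mean square difference of log2 CPM over the 8 libraries after each gene was centred on its mean, so that 0 is an identical profile. Il2ra and Il12rb2 were the closest pair at 0.0992, followed by Il2rb and Il12rb2 at 0.201, Il2rg and Il21r at 0.215, Il2ra and Il2rb at 0.222, and Il6st and Il6ra at 0.230. The farthest were Il6ra and Il18r1 at 1.44. Among all 13073 genes, the nearest to Il2ra included Rbpj at 0.0626, which encodes the DNA-binding factor of Notch signalling, and Furin at 0.0791, a protease gene. The nearest to Il18r1 were Lmna at 0.0986, which encodes nuclear lamins, and Cdkn1a at 0.113, which encodes a cell cycle inhibitor, and among the 3 nearest to Il10ra was the perforin gene Prf1 at 0.133. The nearest to Il7r was Zfp882 at 0.137. The nearest to Il2rb was Lilr4b at 0.0440, to Il2rg Wsb1 at 0.0356, to Il21r Arhgap18 at 0.0464, to Il12rb2 Uap1 at 0.0629, to Il6st Trim13 at 0.161 and to Il6ra Mapk4 at 0.132. Genes with few differences between groups lie near one another by this measure, and low counts add to the distance.

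The other chains of interleukin and related receptors formed a list of 37, of which 27 passed the filter. Between the genotypes 0 of the 27 were called by edgeR in PD1+Tim3+ cells, in PD1+Tim3- cells or on average, while 5, 2 and 3 had an unadjusted p under 0.05 in these tests. DESeq2 and limma-voom called 0 as well. In PD1+Tim3+ against PD1+Tim3- cells, 4 were higher and 1 lower in dKO-labelled libraries and 6 higher and 2 lower in WT libraries. Over all genes tested, 9.93% were called in dKO-labelled and 17% in WT libraries in these comparisons. Il18rap, the partner of Il18r1, rose by 1.11 ± 0.13 in dKO-labelled and 1.15 ± 0.13 in WT cells (adjusted p = 6.92e-04 and 5.22e-04). Il4ra, a chain of the IL-4 receptor that pairs with Il2rg, fell by 0.81 in dKO-labelled and by 0.60 in WT cells on the log2 scale (adjusted p = 0.00342 and 0.00604). Il1r1, the signalling receptor of IL-1, rose by 2.64 ± 0.32 in dKO-labelled and 2.00 ± 0.27 in WT cells (adjusted p = 7.06e-04 and 0.00153). Without dKO-labelled PD1+Tim3- replicate 1 the Il1r1 call in dKO-labelled cells was lost (adjusted p = 0.0663), and the Il4ra call in WT cells was lost without WT PD1+Tim3+ or PD1+Tim3- replicate 1 (adjusted p up to 0.0813). Il12rb1 and Il15ra, partners of Il12rb2 and of Il2rb, rose in WT cells by 0.88 ± 0.16 and 0.59 ± 0.18 (adjusted p = 0.00464 and 0.0434), and in dKO-labelled cells their differences of 0.52 ± 0.18 and 0.17 ± 0.20 were not called. For the interaction 0 of the 27 were called by edgeR, DESeq2 or limma-voom, while 3 had an unadjusted p under 0.05 in edgeR. Il23r, a chain of the IL-23 receptor with 2 to 46 counts per library, was called higher in both genotypes, with adjusted p = 0.0068 in dKO-labelled and 0.00543 in WT cells, and its call was lost in 1 and 2 of the 8 omissions. Il1rl1, the IL-33 receptor, was called higher in dKO-labelled cells alone (adjusted p = 0.00439, and 0.094 in WT cells), with an interaction that was not called (adjusted p = 0.338). In WT cells Il1r2, a decoy receptor of IL-1, was called higher (adjusted p = 0.0126) from 0 to 6 counts per PD1+Tim3- library. Il17ra, a chain of the IL-17 receptor, fell by 0.36 on the log2 scale in WT cells (SE 0.10, adjusted p = 0.0389), a call that held in 4 of the 8 omissions. The Il12rb1 call held in 8 and the Il15ra call in 3 of the 8 omissions of a library.

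**Figure D5:**
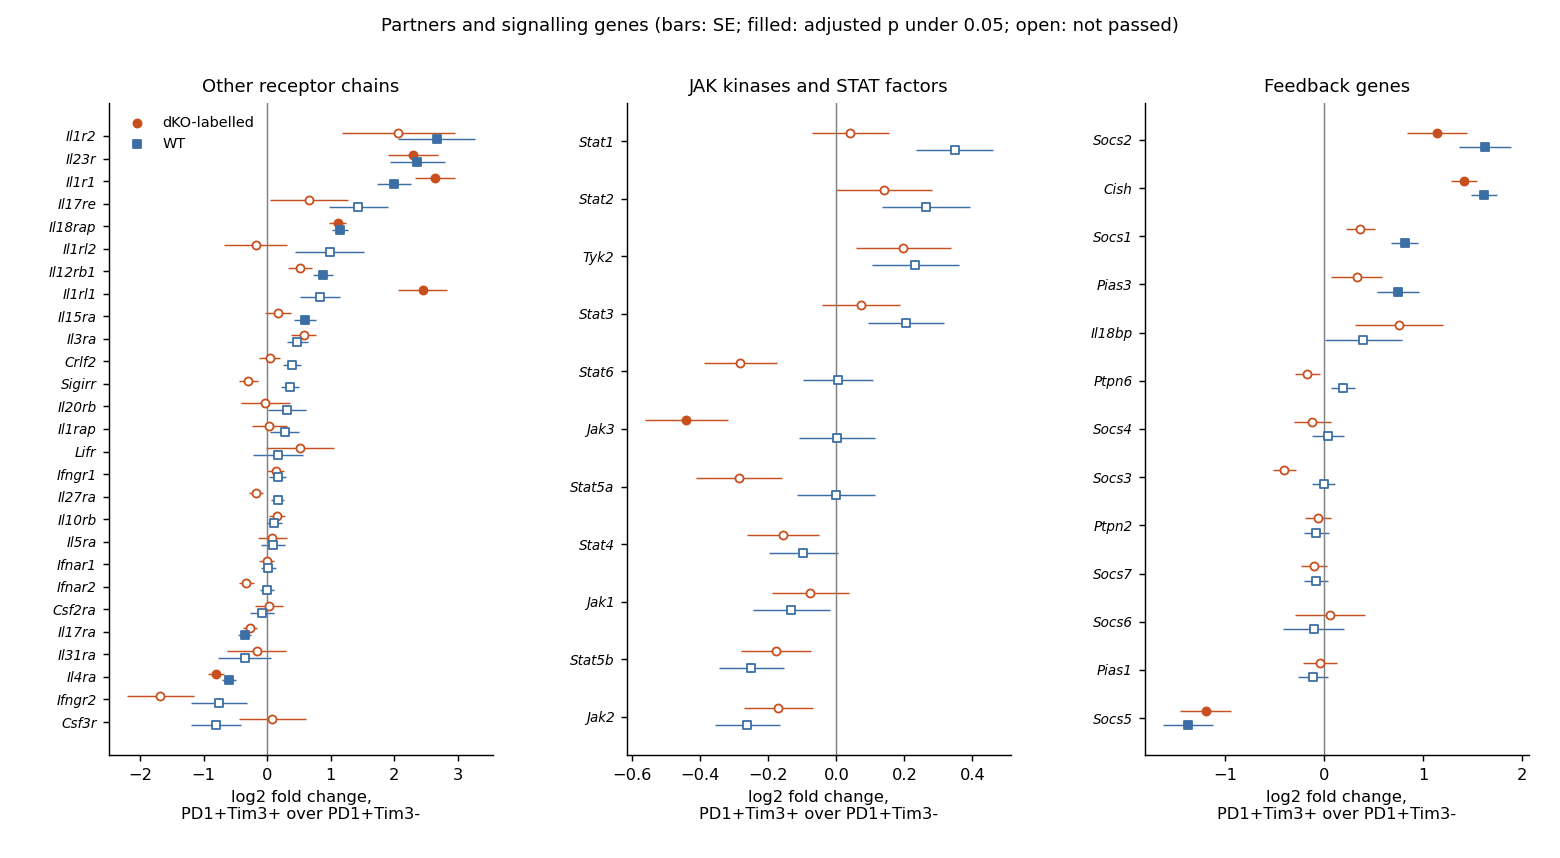
Log2 fold changes of PD1+Tim3+ over PD1+Tim3- cells for the other receptor chains, JAK kinases with STAT factors, and feedback genes, in dKO-labelled (orange circles) and WT libraries (blue squares), with bars for the SE and filled symbols for adjusted p under 0.05. The JAK and STAT genes stay within 0.5 of 0, and Cish at 1.41 and 1.61 and Socs5 at -1.19 and -1.38 lie on opposite sides.

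Downstream of the receptors, 11 genes of JAK kinases and STAT factors were tested. Stat3, the main STAT factor of the IL-6, IL-10 and IL-21 receptors, had 159 and 140 CPM in dKO-labelled and 224 and 243 CPM in WT PD1+Tim3+ libraries, and 144 and 140 CPM in dKO-labelled and 208 and 197 CPM in WT PD1+Tim3- libraries. All 4 dKO-labelled libraries lay below all 4 WT libraries. On the log2 scale Stat3 fell by 0.65 in dKO-labelled against WT PD1+Tim3+ cells (SE 0.11, adjusted p = 0.0303) and by 0.58 on average (SE 0.080, adjusted p = 0.00581), and it was the only gene of the 11 called between the genotypes in those tests. In PD1+Tim3- cells its difference was -0.51 ± 0.11 (adjusted p = 0.195). Both calls were made by DESeq2 and limma-voom as well. The PD1+Tim3+ call was lost without either WT PD1+Tim3+ library, either dKO-labelled PD1+Tim3- library or dKO-labelled PD1+Tim3+ replicate 2 (adjusted p up to 0.358), and the averaged call without either dKO-labelled PD1+Tim3- library or WT PD1+Tim3+ replicate 2 (adjusted p up to 0.0698). Between the populations Jak3, the kinase that binds the common gamma chain, fell by 0.44 in dKO-labelled cells on the log2 scale (SE 0.12, adjusted p = 0.0441), a call that held in 2 of the 8 omissions of a library and was not made by DESeq2. In WT cells 0 of the 11 were called by edgeR and by DESeq2 and 1 by limma-voom in that comparison, while 3 had an unadjusted p under 0.05. For the interaction 0 of the 11 were called by edgeR, DESeq2 or limma-voom, while 1 had an unadjusted p under 0.05 in edgeR.

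Of 13 feedback genes, which encode inhibitors of cytokine signalling, 0 were called by edgeR between the genotypes in PD1+Tim3+ cells, in PD1+Tim3- cells or on average, while 1, 2 and 2 had an unadjusted p under 0.05, and DESeq2 and limma-voom called 0. Cish, which is induced by STAT5, had 202 and 163 CPM in dKO-labelled and 155 and 150.4 CPM in WT PD1+Tim3+ libraries, and 68.0 and 69.3 CPM in dKO-labelled and 46.4 and 53.9 CPM in WT PD1+Tim3- libraries. Every PD1+Tim3+ library was above every PD1+Tim3- library. Between the populations it rose by 1.41 ± 0.13 in dKO-labelled and 1.61 ± 0.13 in WT cells (adjusted p = 1.40e-04 and 5.22e-05). Socs2 rose by 1.14 ± 0.30 and 1.63 ± 0.27 and Socs5 fell by 1.19 and by 1.38 in dKO-labelled and WT cells, and in WT cells Socs1 and Pias3 rose by 0.81 ± 0.14 and 0.75 ± 0.21. That made 2 higher and 1 lower of the 13 in dKO-labelled and 4 higher and 1 lower in WT libraries, against 9.93% and 17% of all genes. For the interaction 0 of the 13 were called by edgeR, DESeq2 or limma-voom, while 2 had an unadjusted p under 0.05 in edgeR. The calls of Cish held in both genotypes whichever library was left out, while those of Socs2 in dKO-labelled and of Pias3 in WT cells held in 2 of the 8 omissions each.

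Of 8 genes that carry the IL-18 signal from the receptor, 7 were tested and 1, the kinase gene Irak2, was higher in PD1+Tim3+ cells, by 0.59 ± 0.17 in dKO-labelled and 0.80 ± 0.14 in WT cells (adjusted p = 0.0494 and 0.00494). The call in dKO-labelled cells was lost whichever library was left out (adjusted p up to 0.205), and that in WT cells without WT PD1+Tim3+ replicate 1 (adjusted p = 0.058). Between the genotypes 0 of the 7 were called by edgeR, DESeq2 or limma-voom, and 1 in PD1+Tim3+ cells, 0 in PD1+Tim3- cells and 1 on average had an unadjusted p under 0.05. Among 11 genes known to respond to these cytokines, 4 were higher and 1 lower in the PD1+Tim3+ population of dKO-labelled cells, and 4 higher and 2 lower in that of WT cells. Over all genes tested, 9.93% and 17% were called in these comparisons. Gzmb, which encodes granzyme B, rose by 2.39 ± 0.14 in dKO-labelled and 2.16 ± 0.13 in WT cells, and Ifng, which encodes interferon-gamma, by 1.52 ± 0.11 in dKO-labelled and 1.61 ± 0.11 in WT cells. Both genes were called in both genotypes whichever library was left out. Prdm1 and Pim1 were the others that rose, and Myc fell in both genotypes and Bcl6 in WT cells. Of these further calls only that of Prdm1 in WT cells held whichever library was left out. Those of Pim1 and Bcl6 in WT cells held in 2 and 4 of the 8 omissions. In WT cells DESeq2 called 3 and limma-voom 7 of the 11, against 6 by edgeR, and for the interaction each called 0. Between the genotypes edgeR, DESeq2 and limma-voom called 0 of these 11, while 3 in PD1+Tim3+ cells, 4 in PD1+Tim3- cells and 6 on average had an unadjusted p under 0.05 in edgeR.

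Of 10 genes for factors known to act on Il7r, 0 were called by edgeR, DESeq2 or limma-voom between the genotypes in either population or on average, and 1 in each had an unadjusted p under 0.05 in edgeR. Between the populations, in which Il7r fell in WT cells, Runx1 rose by 0.75 ± 0.18 in dKO-labelled and 0.77 ± 0.16 in WT cells, calls that held in 3 and 6 of the 8 omissions. Tcf7, a factor of stem-like T cells, fell by 0.87 in dKO-labelled and by 0.80 in WT cells on the log2 scale, and was called in both whichever library was left out. Gfi1, which encodes a repressor of Il7r, fell by 1.01 in dKO-labelled and Foxp1 by 0.36 in WT cells, calls that held in 7 and 2 of the 8 omissions. For the interaction 0 of these 10 genes were called by edgeR, DESeq2 or limma-voom, while 1 had an unadjusted p under 0.05 in edgeR. Ccr7, a lymph node homing receptor gene that is, like Il7r, a target of FOXO1, gave a log2 fold change of -1.39 ± 0.11 in dKO-labelled against WT PD1+Tim3+ cells (adjusted p = 2.85e-04), and the call held whichever library was left out. Il7r was higher in the same comparison. The FOXO1 targets Klf2 and S1pr1 were not called. In that comparison Klf2 differed by -0.20 ± 0.11 (unadjusted p = 0.0957, adjusted p = 0.513) and S1pr1 by 0.33 ± 0.11 (unadjusted p = 0.0101, adjusted p = 0.231).

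Of 19 genes for the ligands, 17 were in the table, and 4 passed the filter. Lif, a ligand of the gp130 family, rose by 0.94 ± 0.29 in PD1+Tim3+ against PD1+Tim3- cells of WT (adjusted p = 0.0497), and it was the only call of edgeR among the 4 in these comparisons. It held in 2 of the 8 omissions of a library and was not made by DESeq2 or limma-voom.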

How the data were processed

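The authors deposited 1 table of raw counts by gene symbol for the 8 libraries. Per the submitters' processing notes the build was mm10 and the tools cutadapt 1.18 and Bowtie2 2.2.5, without their role or order. The counting tool, annotation and strand setting were not given in the sources used here. A last row without a gene name (1 row) repeated the column totals, made up no part of library sizes and was left out. Columns that name PD1 alone were taken as PD1+Tim3-, since the Tim3+ columns are named separately. Groups came from the labels.

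Counts were scaled by TMM factors, filtered by filterByExpr over the 4 groups to 13073 genes, and tested by glmQLFit and glmQLFTest of edgeR 4.0.16 (R 4.3.3) in 1 fit of 4 group means. A call is a Benjamini-Hochberg adjusted p under 0.05 over all genes tested. Standard errors are the size of the log2 fold change divided by the root of F. Intervals at 95% use the same shared variance. The procedure was also run on counts simulated with the spread fitted to these data, which cannot show how calls behave where the real spread differs. Alternatives were DESeq2 1.42.0, limma-voom 3.58.1, size factors of DESeq2, no low-count filter, robust empirical Bayes, a replicate block, library sizes without ribosomal RNA genes, the 4 libraries alone, and leaving out each library. Coordinates and exon lengths are those of GENCODE vM21 on GRCm38, and promoter windows those of RefSeq on GRCm38.p6.

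The members and gene lists were chosen with earlier results of these data known. All 10 members are named. 1 listed gene is not reported here. Other listed genes could be named where called in any comparison or among the 3 of highest level in their list, though not all of these are, and the 3 nearest genes by centred log2 CPM (prior count 2) were found for each member.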

Additional observations from a re-analysis of the deposited data

How the results depend on the processing

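Same-numbered deviations of dKO-labelled PD1+Tim3+ and PD1+Tim3- libraries correlated at -0.0454 over genes and those of WT at -0.0174. The largest value by size, -0.181, was between WT PD1+Tim3- and dKO-labelled PD1+Tim3+ libraries. With 2 libraries per group, such values cannot show whether the replicate numbers pair the libraries, which the main test treated as independent. With the replicate number as a block, the count of chains called between the genotypes in PD1+Tim3+ cells was 1, as with DESeq2 (1) and with the 4 libraries alone (1), against 2, because Il10ra was lost. Under the block the averaged Il18r1 call was lost too (adjusted p = 0.116). Over all genes, the block called 40 in PD1+Tim3+ cells, 0 in PD1+Tim3- cells, 69 on average and 716 between the populations of dKO-labelled cells, against 82, 6, 113 and 1298. Without the filter these were 486, 232 and 269 between the genotypes and 331 for the interaction, against 0. Robust estimation gave 171 on average, 56 in PD1+Tim3- cells and 4 for the interaction. DESeq2 called 1314 between the WT populations, against 2223, and 109 for the interaction. The 4 libraries alone gave 38 in PD1+Tim3+ and 3 in PD1+Tim3- cells, and limma-voom 0 in PD1+Tim3- cells. With no low-count filter 1 chain, Il10ra, was called in PD1+Tim3- cells, against 0, and 3 in PD1+Tim3+ cells, where Il6st was gained. Leaving out each library in turn gave 0 to 0 chains in PD1+Tim3- cells, 0 to 2 in PD1+Tim3+ cells, 0 to 3 on average, 2 to 7 between the populations of dKO-labelled cells, 5 to 8 in WT cells and 0 to 0 for the interaction. Over all genes these omissions gave 0 to 31, 6 to 413, 39 to 139, 132 to 1392, 433 to 2773 and 0 to 323 calls in the same order. Of all values of single chains under the alternatives, 884 kept direction and side of the threshold, 43 lost the call, 3 gained it and 40 changed sign, none of these a called value. Scaling alternatives moved the median of all genes by -0.0116 to 0.00992 on the log2 scale.

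The sign changes were of values near 0. Il6ra gave -0.0154 in PD1+Tim3- cells with limma-voom and 0.00212 on average with DESeq2. Il21r between the WT populations gave -0.0104 with DESeq2 size factors in edgeR, -0.0114 with DESeq2, -0.00078 with limma-voom, -0.0027 with the replicate block, -0.0065 with the block within genotype, -0.00398 without ribosomal RNA genes and -0.00114 with the 4 libraries alone. Leaving out single libraries moved Il6st in PD1+Tim3- cells over -0.107 to 0.0654, Il6ra over -0.128 to 0.269 in PD1+Tim3- cells, -0.217 to 0.161 in PD1+Tim3+ cells and -0.107 to 0.101 on average, and Il2rg in PD1+Tim3+ cells over -0.0759 to 0.0443. Between the populations it moved Il7r in dKO-labelled cells over -0.0327 to 0.0663, Il21r over -0.0161 to 0.140 in dKO-labelled and -0.119 to 0.102 in WT cells. The interaction ran over -0.0449 to 0.0534 for Il2ra, -0.336 to 0.136 for Il6ra, -0.0581 to 0.162 for Il21r, -0.0233 to 0.171 for Il18r1 and -0.332 to 0.0139 for Il10ra. With 2 mice per group, a lone library left by such an omission is assumed to vary like the other groups. Il6ra, at 14 to 67 counts, is the chain most limited by depth.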
